A study of Homo sapiens with 21 samples.

Results

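Open chromatin was compared between microglia-like cells of the SORL1-A528T line and of the unedited line (WT), using 6 of the 21 ATAC-seq libraries of the series. The members were chosen by title: replicates 1, 2 and 3 of SORL1-A528T and replicates 1, 2 and 3 of WT. The parent of both lines was H9, an established line of human embryonic stem cells. SORL1-A528T was made homozygous for a missense variant of SORL1 by CRISPR/Cas9 cutting with an oligonucleotide repair template and growth of isolated clones, whose number per line the labels do not give. Cells of both lines were differentiated through haematopoietic progenitors and cultured for 28 days with microglial growth factors (IL-34, TGF-beta1 and M-CSF), with CD200 and CX3CL1 added at the end, and 80000 sorted cells per line were taken for transposition. The genotype label of the 3 libraries titled SORL1-A528T names TREM2-KO, in conflict with their titles. The libraries were grouped by title, and SORL1-A528T always means the libraries with that title. The labels do not say whether replicates came from separate differentiations, and the spread that the p-values rest on may therefore be technical.

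SORL1 encodes a sorting receptor of the VPS10 family that moves cargo, including the amyloid precursor protein, between endosomes, the Golgi and the cell surface together with the retromer complex. Variants at SORL1 are among the genetic risk factors for Alzheimer disease, and microglia, the macrophages of the brain, express the gene. ATAC-seq marks accessible DNA: a transposase inserts adapters into promoters and enhancers that are free of nucleosomes, and dense insertions are called as peaks. The deposited lists give the position of each peak and its place in the list, with no height, so the comparisons below concern which regions were called, how wide they were and how high they stood in the lists.

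Of the regions called in all WT lists and in no SORL1-A528T list, those at gene starts were described first by rule, and the promoter sequences of 4 of these genes are shown to make the sites recognisable. Of 11 gene starts at the 10 regions so named, 9 had a promoter in the RefSeq table (250 bases before to 50 after the start, GRCh38.p14), and 8 of these promoters lay at least partly under the region. H2BC3 (chr6:26043664-26043963, minus strand) and H3C3 (chr6:26045134-26045433, plus strand) are neighbouring replication-dependent histone genes under the same region. VCAN (chr5:83471494-83471793, plus strand) encodes the matrix proteoglycan versican, and FSTL1 (chr3:120450943-120451242, minus strand) a secreted follistatin-like glycoprotein. Capitals mark matches, on either strand, to 7 motifs of promoters. The core promoter motifs searched were the TATA box, which positions the polymerase and was spelled TATAAA, the box bound by NF-Y, spelled CCAAT, and the GC box, bound by Sp1 family factors and spelled GGGCGG. The other motifs searched were the octamer of POU factors, spelled ATTTGCAT, the AP-1 motif of Fos and Jun proteins, spelled TGANTCA, the ETS core bound by factors such as the myeloid regulator PU.1, spelled GGAAGT, and the cyclic AMP response element (CRE), spelled TGACGTCA.
H2BC3: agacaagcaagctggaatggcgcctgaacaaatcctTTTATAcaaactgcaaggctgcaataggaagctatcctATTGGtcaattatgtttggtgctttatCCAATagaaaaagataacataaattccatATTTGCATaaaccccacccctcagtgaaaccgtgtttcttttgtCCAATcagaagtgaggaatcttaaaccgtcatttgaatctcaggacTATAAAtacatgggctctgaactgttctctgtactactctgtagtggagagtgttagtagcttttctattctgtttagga
H3C3: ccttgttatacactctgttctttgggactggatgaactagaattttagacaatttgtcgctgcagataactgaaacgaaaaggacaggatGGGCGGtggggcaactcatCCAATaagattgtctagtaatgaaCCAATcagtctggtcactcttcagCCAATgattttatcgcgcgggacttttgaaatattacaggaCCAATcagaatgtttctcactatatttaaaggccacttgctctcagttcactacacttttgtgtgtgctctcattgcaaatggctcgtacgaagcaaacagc
VCAN: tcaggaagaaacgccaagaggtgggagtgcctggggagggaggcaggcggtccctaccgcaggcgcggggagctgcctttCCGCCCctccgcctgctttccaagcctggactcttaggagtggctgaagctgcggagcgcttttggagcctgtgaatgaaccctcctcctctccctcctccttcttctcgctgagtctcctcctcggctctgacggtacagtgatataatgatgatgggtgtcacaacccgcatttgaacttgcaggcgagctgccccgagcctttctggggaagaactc
FSTL1: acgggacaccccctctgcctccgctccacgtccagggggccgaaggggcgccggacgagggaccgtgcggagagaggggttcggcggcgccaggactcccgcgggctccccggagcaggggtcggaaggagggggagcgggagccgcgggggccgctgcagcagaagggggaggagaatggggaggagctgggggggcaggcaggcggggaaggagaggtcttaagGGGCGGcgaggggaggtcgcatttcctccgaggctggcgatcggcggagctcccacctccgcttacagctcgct
The H2BC3 promoter held 2 matches to the TATA box, 3 to the CCAAT box and 1 to the octamer, a motif known from histone H2B promoters, and the H3C3 promoter held 4 CCAAT boxes and 1 GC box. Of 35116 RefSeq promoters of this length, 11.5% held the TATA box, 34.6% the CCAAT box, 1.77% the octamer, 7.71% the AP-1 motif, 22.8% the ETS core, 45% the GC box and 1.85% the CRE. Both histone promoters were poor in G and C (38.67% and 42%, against a median of 58.67% over all promoters). The VCAN promoter (60.33%) and the FSTL1 promoter (73.67%) each held a single GC box and no other motif of the set. The matches describe the letters in these windows and say nothing about binding.

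The SORL1-A528T lists were the shorter ones at each replicate number. After peaks on chromosomes Y and M were left out, SORL1-A528T replicates 1, 2 and 3 held 69636, 39711 and 78373 peaks and WT replicates 1, 2 and 3 held 96241, 46956 and 95266. The difference of the means was -16914 peaks (62573 ± 20276 against 79488 ± 28178, SD, n = 3 each, exact permutation test, two-sided, p = 0.5, where 3 against 3 libraries cannot go below 0.1). Depth followed the replicate number (tags of 56.5, 14.2 and 52.9 M in SORL1-A528T and 65.4, 15.5 and 48.5 M in WT). A pair of SORL1-A528T libraries stood apart in the file headers: in replicate 3, 39.38% of tags lay in peaks, the lowest share of the 21 libraries, and in replicate 2 the fragment length estimated by HOMER was 494 bp, against 262 bp in WT replicate 2 and 136 to 186 bp in the other lines. The part of these values in the results below was not tested, and counts are given without these libraries where they move.

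**Figure D1:**
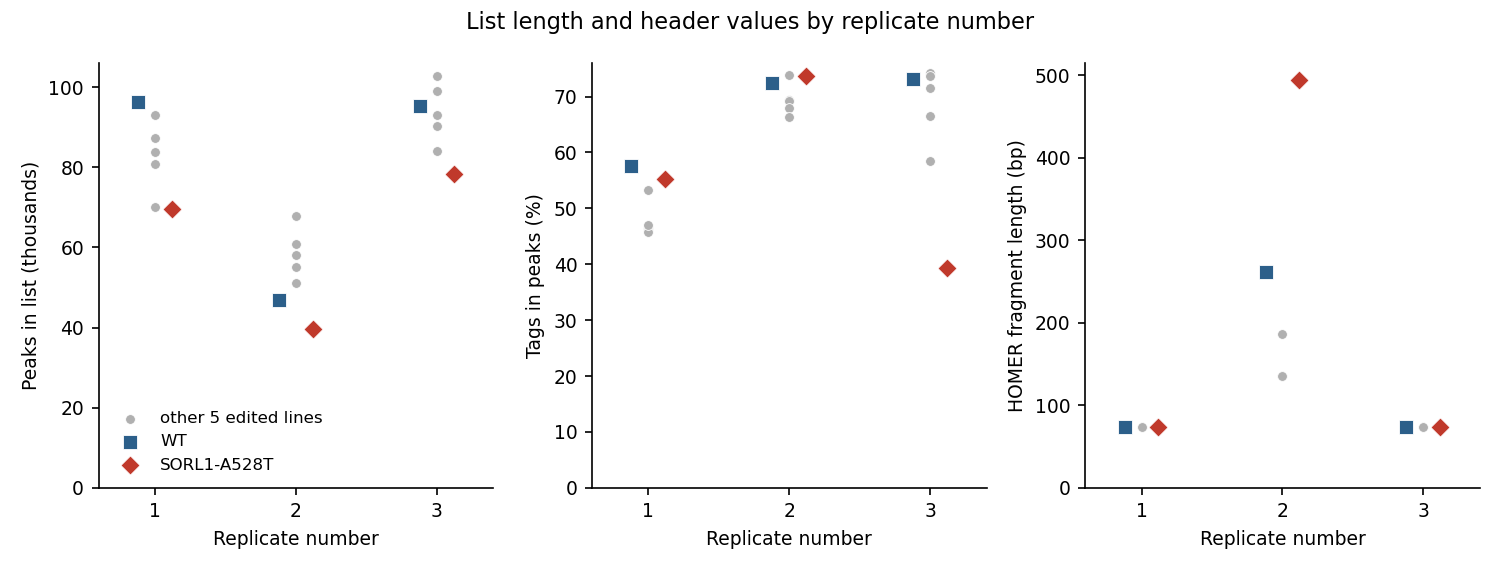
Peaks per list, percent of tags in peaks and estimated fragment length in bp, by replicate number, for SORL1-A528T (red diamonds), WT (blue squares) and the 15 libraries of the other 5 edited lines (grey points). At each replicate number no list was shorter than that of SORL1-A528T, replicate 3 had 39.38% of its tags in peaks, and replicate 2 had a fragment length of 494 bp.

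Most microglia and macrophage markers had a peak near a gene end, which may be the start or the far end, in both lines. Of 16 microglia or macrophage markers, 14, 9 and 14 had a peak within 1 kb of a gene end in SORL1-A528T replicates 1, 2 and 3 and 14, 12 and 14 in WT. Among those called in all 6 libraries were CSF1R, the receptor for M-CSF and IL-34, SPI1, the myeloid pioneer factor PU.1, CX3CR1, P2RY12, GPR34, TYROBP, C1QA, C1QB and ITGAM. TMEM119 and SALL1, which mark microglia in the brain, had no peak in any of the 6. Of 6 pluripotency markers none was called in SORL1-A528T and 2 (PRDM14 and L1TD1) in WT replicate 1 alone. Markers of other types were called at 1 to 3 of 9 erythroid, megakaryocyte or mast cell genes in each line, at 2 to 3 of 6 T or B cell genes in SORL1-A528T and 2 to 5 in WT, at 1 to 2 of 6 mesenchymal or endothelial genes in SORL1-A528T and 1 to 3 in WT, and at 0 to 1 of 5 neural genes in each. Of these markers of other types, KIT, CD3D, CD3E and PDGFRB were called in all 6 libraries. The markers PAX5 (B cells) and PDGFRA (mesenchyme) were called in 2 of 3 WT libraries and in no SORL1-A528T library, and are singled out after their values were seen. A peak at a gene end is not expression of the gene, and the part of other cell types in the results was not tested.

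The edited gene itself was accessible in both lines. The SORL1 gene start (chromosome 11, 121451730 to 121452937) was called with 790 and 1100 bp in SORL1-A528T replicates 1 and 3, not in replicate 2, and with 1184, 634 and 922 bp in WT replicates 1, 2 and 3. Of 29 regions nearest to SORL1, SORL1-A528T called 19, 9 and 19 and WT 27, 15 and 25, and 8 were called in all 6 libraries. These were 54.0% and 77.0% of possible calls, beside 49.8% and 63.5% over all 123021 regions, so the share at SORL1 was above that of all regions in each line and lower in SORL1-A528T than in WT. After adjustment for depth the mean call of SORL1 was -0.04 ± 0.05 in SORL1-A528T and 0.04 ± 0.03 in WT (SD, n = 3), a difference of -0.08 (SE 0.07, limma adjusted p = 0.812). In this scale 0 is the mean call of regions called in equally many of the 6 libraries. SORL1-A528T called fewer of these than WT, so the scale is not symmetric. A gene with every region gained would exceed 1, and one with every region lost would fall short of 1 in size. By construction the adjusted values of the 6 libraries sum to 0, so the means of the lines mirror each other and are not separate evidence. The region of the locus that stood highest in replicates 2 and 3 of each line lay inside the gene (121574715 to 121576161). It stood at percentile 89.4, 88.9 and 92.9 of the SORL1-A528T lists and 94.5, 90.8 and 96.1 of the WT lists. Another inside the gene (121589501 to 121591958) stood highest in replicate 1 of each line, at 90.3, 80.9 and 92.2 against 95.5, 83.1 and 92.0.

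**Figure D2:**
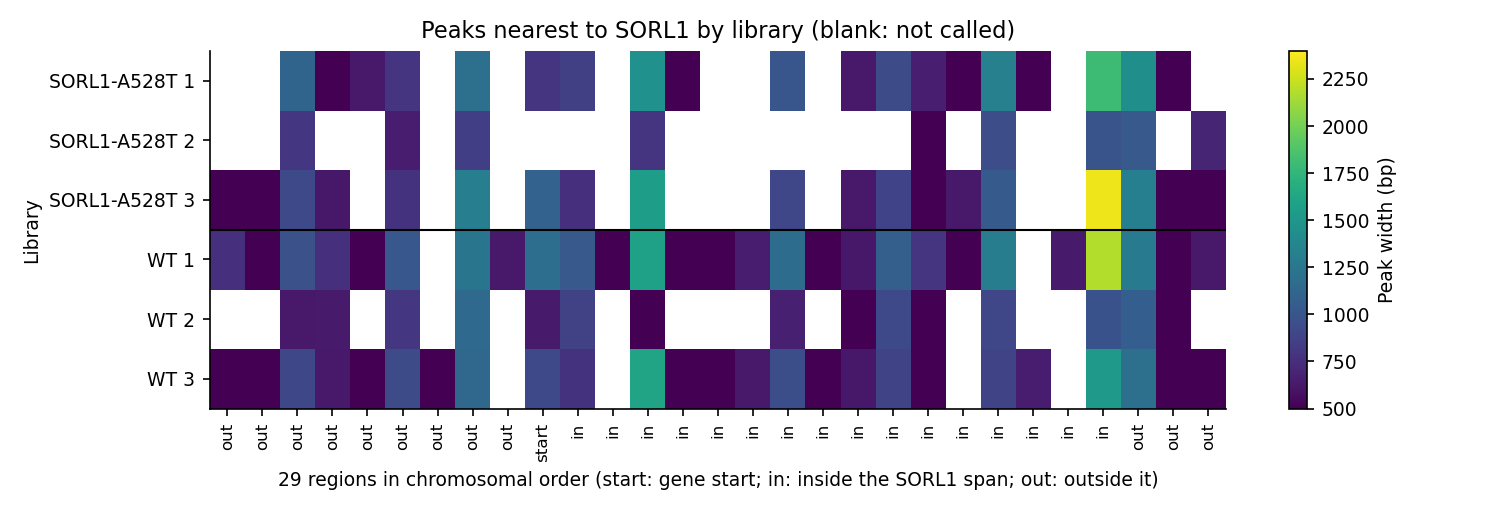
Width in bp of the peaks at the 29 regions nearest to SORL1, in chromosomal order from left to right, for each of the 6 libraries (white: no peak). Replicate 2 of SORL1-A528T called 9 regions and lacked the gene start, and the widest peaks were shared by both lines.

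The other genes tied to the title of the series gave few regions. TREM2, a lipid-sensing receptor of microglia, had 4 regions, of which SORL1-A528T replicates 1, 2 and 3 called 4, 0 and 3 and WT 2, 2 and 2. Its gene start (chromosome 6, 41161703 to 41163574) was called with 903 and 1169 bp in SORL1-A528T replicates 1 and 3 and with 1669 and 1002 bp in WT replicates 1 and 3, and in neither replicate 2. APOE, the lipid carrier gene, had 3 regions with 0, 0 and 1 calls in SORL1-A528T and 1, 0 and 1 in WT. Neither gene had the 5 regions needed for the test per gene.

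Peaks that shared at least 1 bp were merged over the 6 lists into 123021 regions. Regions called in all 6 libraries numbered 29473 (24.0%), and 27.8% of them lay within 1 kb of a gene start. Regions called in no SORL1-A528T library and in all 3 WT libraries, termed lost here, numbered 823 (0.669% of all regions), and regions called in all 3 SORL1-A528T libraries and in no WT library, termed gained, numbered 21 (0.0171%). The longer list of each replicate number was then shortened, in list order, to the length of the other. Of 102951 regions, 242 were then lost (0.235%) and 96 gained (0.0932%). The SORL1-A528T list was the shorter at each number, so only WT peaks were removed. This by itself lowers the count of lost regions and raises that of gained ones, so nothing is read from the direction. The 242 were among the 823.

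**Figure D3:**
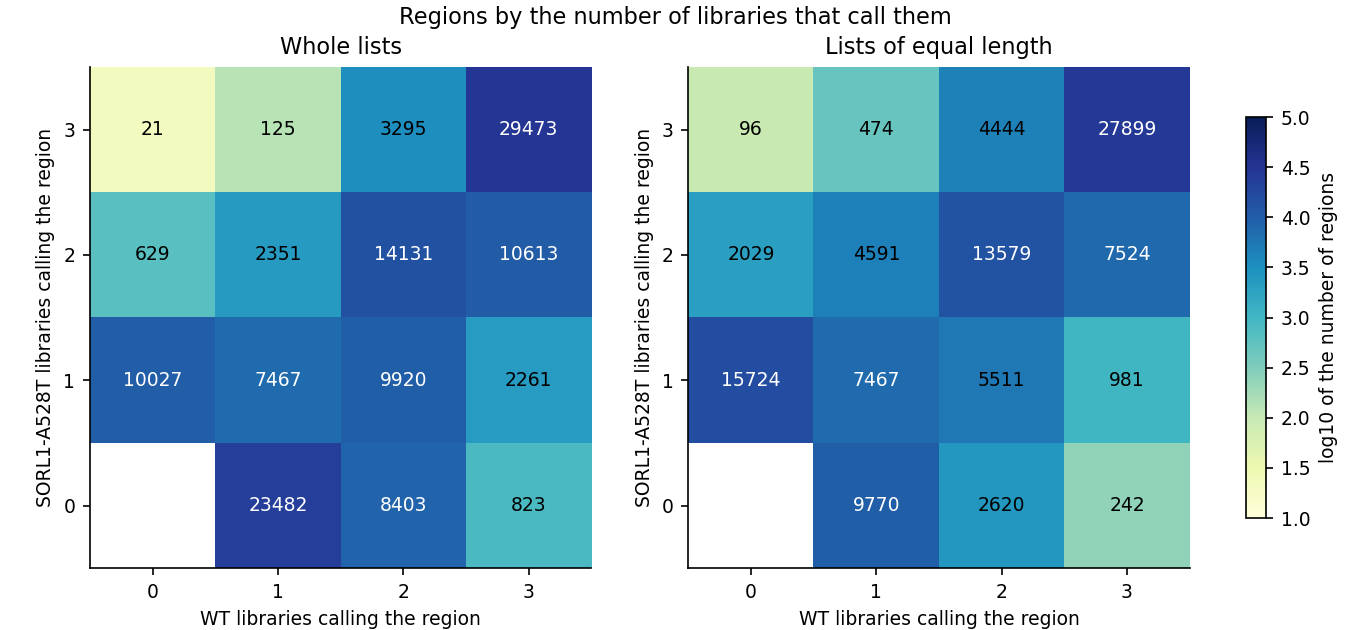
Number of regions by how many of the 3 WT libraries (horizontal) and of the 3 SORL1-A528T libraries (vertical) called them, for whole lists and for lists of equal length; colour shows the log10 of the number. The corner called in 3 WT and 0 SORL1-A528T libraries held 823 and 242 regions, and the opposite corner 21 and 96.

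Leaving out a library loosens the all-or-none rule, so both counts can only stay or rise, and nothing is read from a rise as such. Its size differed between libraries. The lost regions numbered 1487 without SORL1-A528T replicate 1, 2295 without its replicate 3 and 8696 without WT replicate 2. The gained regions numbered 157, 473 and 62 without SORL1-A528T replicates 1, 2 and 3, and 52 and 111 without WT replicates 1 and 3. Among 10613 regions called in all WT libraries and in 2 of 3 SORL1-A528T libraries, the missing library was replicate 2 in 9903 (93.3%). The missing call thus fell mostly to the shallowest of the 3 libraries.

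Regions lost from SORL1-A528T were weak in WT and lay away from gene starts. Their median place in the WT lists was percentile 27.6, where 100 is the first peak of a list. It was 73.0 for all regions called in the 3 WT libraries and 81.2 for regions called in all 6. Of regions called in all 3 WT libraries, 26 of 9720 at gene starts were lost (0.267%), 353 of 16184 inside genes (2.18%) and 444 of 17266 outside genes (2.57%). Above percentile 50 of the WT lists the shares were 0.0638%, 0.189% and 0.252%, and at or below it 6.39%, 9.41% and 9.89%. The order of the 3 classes was the same in both parts of the lists, and the step between the parts was larger than the step between the classes. In the 15 libraries of the other 5 edited lines, 242 of the 823 lost regions were called in at least 12, 42 in all 15 (5.10%) and 143 in at most 5. Of all 43170 regions called in the 3 WT libraries, 39539 were called in at least 12, 30335 in all 15 (70.3%) and 327 in at most 5. The lost regions were thus called less often in the other lines than WT regions at large, but the sets were not matched for place in the lists. At or below percentile 50 of the WT lists lay 760 of the 823 lost regions and 7962 of the 43170. The part of list place in this contrast was not tested. Of the 21 gained regions none was called in all 15, and 16 were called in at most 5, beside 32769 (26.6%) and 41385 of all 123021 regions.

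The lost region that stood highest in the WT lists covered the divergent histone genes H2BC3 and H3C3 on chromosome 6 (26043086 to 26045917), whose promoters are printed above. It was called with 2832, 659 and 1846 bp in WT replicates 1, 2 and 3, at percentiles 91.2, 35.6 and 77.7, and in no SORL1-A528T library. The same region was called in 3 of 3 libraries of INPP5D SNP and of SORL1-KO and in 0 of 3 of CD33 SNP, TREM2-KO and TREM2-R47H. Every line was thus complete or empty at this site, and SORL1-A528T shared the empty state with 3 other lines. Of 60 regions nearest to 53 listed histone genes of chromosome 6, this 1 was lost (1.67%, beside 0.605% of the regions near any gene). Of the 43 called in all WT libraries, 39 were called in all 6 (90.7%, beside 68.8% near any gene).

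The other named regions lost at gene starts each had a peak in 9 or more of the 15 libraries of the other edited lines. The start of NAV2, a microtubule-associated gene of growing axons (chromosome 11, 19345544 to 19346900), had 1340, 841 and 1181 bp in WT and peaks in 14 of the 15 remaining lists. HAPSTR2, a retrogene of a stress response regulator on X (140090895 to 140091941), had 761, 927 and 1047 bp in WT and 14 of 15 other calls. The VCAN start (chromosome 5, 83471007 to 83472013) had 647, 852 and 918 bp in WT and 14 other calls. These 3 promoters stood near the middle of the WT lists, at median percentiles 57.8, 57.1 and 53.3. The FSTL1 start (chromosome 3, 120450222 to 120451122) had 899, 639 and 871 bp in WT and was called in all 15 other libraries, so SORL1-A528T was the single line of the 7 without it. MSR1, the class A scavenger receptor of macrophages (chromosome 8, 16192344 to 16193159), had 775, 632 and 501 bp in WT, at percentiles 62.2, 40.4 and 25.4, and 14 of 15 other calls. Its 11 regions gave 6, 4 and 5 calls in SORL1-A528T and 8, 6 and 9 in WT, a depth-adjusted difference of -0.12 (limma adjusted p = 0.765). GLT1D1, a glycosyltransferase gene, TMPRSS11D, an airway serine protease gene, TSHZ3, a zinc finger factor gene, and CDH2, the gene of N-cadherin, completed the 10, with 12, 10, 9 and 12 calls in the other 15 libraries. Of the 26 gene starts lost with whole lists, 10 were also lost with lists of equal length. Among the rest was VSIG4, a complement receptor of tissue macrophages (X, 66039746 to 66040650; 905, 501 and 501 bp in WT and 14 other calls), and DACT1, a regulator of Wnt signalling (chromosome 14, 58637392 to 58638962; 1571, 501 and 1257 bp and 15 other calls).

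**Figure D4:**
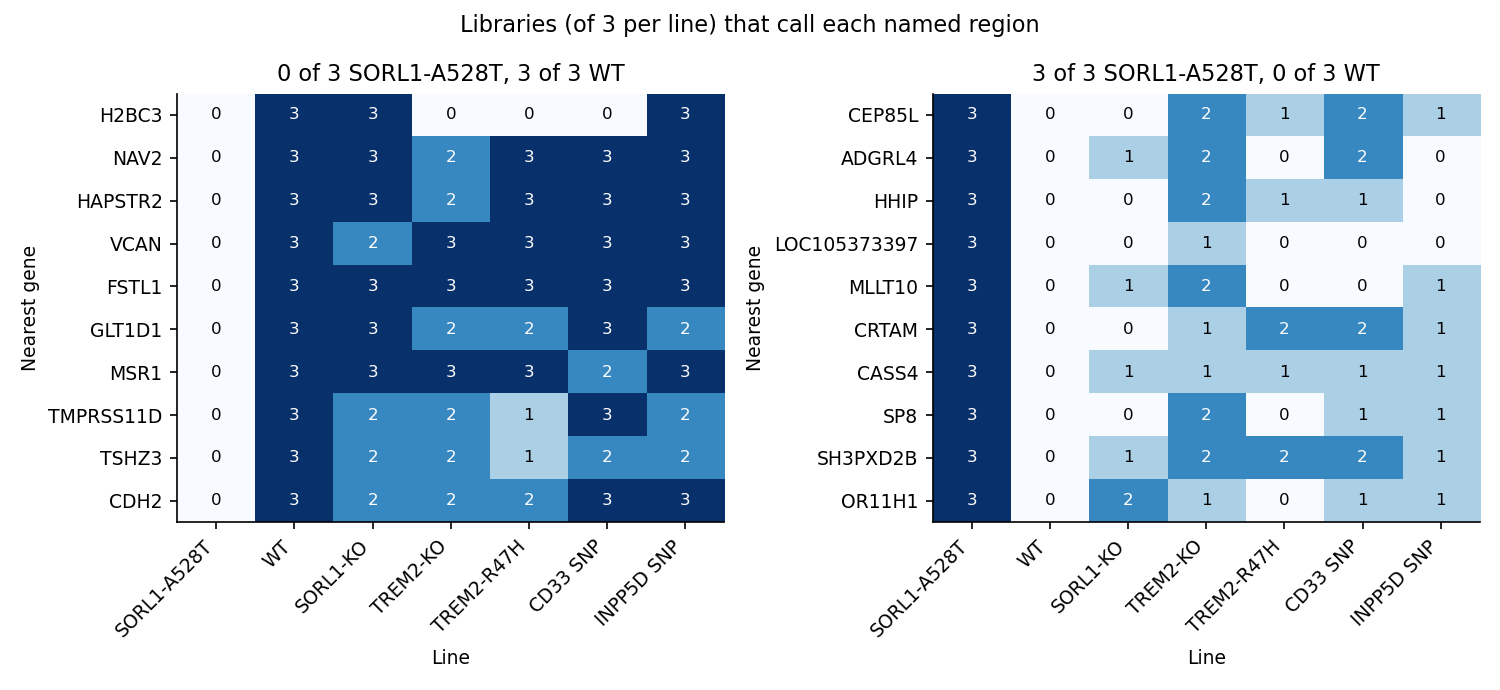
Number of libraries, of 3 per line, that called each of the 10 named lost regions (left) and the 10 named gained regions (right), in the 7 lines. Of the 15 libraries of other edited lines, 9 to 15 held each of the 9 lost regions below H2BC3, and 1 to 8 held each gained region.

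No gained region lay at a gene start. The one that stood highest was inside CEP85L, a centrosomal protein gene (chromosome 6, 118573822 to 118574736), with 782, 762 and 915 bp and percentiles 64.3, 69.7 and 77.1 in SORL1-A528T, and 6 calls in the other 15 libraries. The other 9 named gained regions had median percentiles of 17.5 to 35.3 in the SORL1-A528T lists and widths of 501 to 797 bp. Among them were regions inside MLLT10, a chromatin reader gene, inside CRTAM, a receptor of T and NK cells, inside SH3PXD2B, a podosome adaptor, and inside CASS4, a scaffold protein gene at an Alzheimer risk locus (chromosome 20, 56433039 to 56433727; 626, 501 and 501 bp). The CASS4 region was called in 1 of 3 libraries of each of the other 5 edited lines. Apart from CEP85L, the named gained regions were thus 501 bp wide, the commonest width in each of the 6 lists, in at least 1 SORL1-A528T library, and each was called in 1 or more libraries of other lines.

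No gene passed the test on depth-adjusted calls. Of 6882 genes with at least 5 regions, 0 were higher (0.0%) and 0 lower (0.0%) in SORL1-A528T at a limma adjusted p below 0.05, while 245 (3.56%) and 213 (3.1%) had an unadjusted p under 0.05, and the smallest adjusted p was 0.729. TADA2B, a subunit of the SAGA coactivator, had the smallest p among the higher genes: of 6 regions SORL1-A528T called 5, 3 and 6 and WT 4, 2 and 4 (difference 0.40, SE 0.08). ARHGEF18 had 5, 2 and 6 calls against 5, 0 and 3 (0.46, SE 0.09), and the uncharacterised LOC124903856 had 4, 2 and 4 against 3, 1 and 2 of 5 (0.41, SE 0.08). In all 3 the adjusted values of the lines did not overlap, which held for 4.11% of genes in this direction. Among the lower genes ALX4, a homeobox gene of skull and limb, had 2, 0 and 1 calls against 6, 2 and 6 of 6 regions (-0.36, SE 0.09). PDZD2, a gene of a PDZ domain protein, had 3, 1 and 3 calls against 9, 4 and 10 of 11 (-0.29, SE 0.07), and LOC107986768 had 2, 2 and 2 against 6, 4 and 6 of 6 (-0.37, SE 0.09). Non-overlapping lower values were found in 8.75% of genes.

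Lists of genes by function lay close to all genes. The median depth-adjusted difference over all tested genes was -0.01, and the medians of 22 lists ran from -0.09 (12 tested chemokine and receptor genes) to 0.05 (16 disease-associated microglia genes). In none of the lists did a member pass limma, as none did among all genes. In the list of SORL1 and other VPS10 receptors with retromer, 7 of 15 tested genes were higher and 8 lower (median -0.01). Its extremes were GGA1, a Golgi adaptor of sorting receptors (2, 2 and 6 calls against 4, 2 and 3 of 6 regions), and SORCS1, a VPS10 receptor of neurons (23, 20 and 25 against 42, 18 and 37 of 47). A region 52563 bp outside SORCS1 (chromosome 10, 107233701 to 107234393) was lost, with 693, 501 and 636 bp in WT. Of 15 genes of APP and its secretases 8 were tested, 4 higher and 4 lower (median 0.01). Regions inside APP (chromosome 21, 26136575 to 26137140) and inside ADAM10, the alpha-secretase (chromosome 15, 58598043 to 58598951), were lost with whole lists but not with lists of equal length.

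Lysosomal and autophagy genes were balanced, with 7 of 14 higher and 7 lower (median -0.003). LAMP1, a major membrane protein of lysosomes, had 5, 2 and 5 calls in SORL1-A528T and 4, 2 and 4 in WT over 5 regions, a depth-adjusted difference of 0.28 (SE 0.07, unadjusted p = 0.00205, limma adjusted p = 0.729). ATP6V0D2, a subunit of the proton pump, had 4, 3 and 7 calls against 8, 5 and 10 of 10 (-0.16). In the homeostatic microglia list 6 of 13 were higher and 7 lower. There SELPLG had 5, 1 and 6 calls against 6, 1 and 3 of 8 (0.23) and GPR34 1, 1 and 1 against 5, 1 and 3 of 5 (-0.22). In the disease-associated list 11 of 16 were higher and 5 lower. SPP1, osteopontin, was among the lower ones with 5, 2 and 6 calls against 8, 4 and 8 of 10 (-0.14, SE 0.07), and TIMP2 among the higher with 4, 1 and 3 against 6, 0 and 3 of 7 (0.18, SE 0.11). The depth-adjusted values of the lines did not overlap at SPP1 and overlapped at TIMP2.

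Lineage factors of microglia and macrophages were higher in 13 of 20 and lower in 7 (median 0.03). CEBPB, a myeloid factor of inflammation, had 4, 1 and 8 calls against 7, 1 and 4 of 10 regions (0.19), and ELF1, an ETS factor, 12, 7 and 15 against 16, 12 and 17 of 17 (-0.12). Of 11 tested complement genes 7 were higher, ITGB2, the beta chain of complement receptors, with 7, 0 and 11 calls against 8, 0 and 6 of 12 (0.23, limma adjusted p = 0.736). Of 12 chemokine and receptor genes 5 were higher and 7 lower. CCR7, a lymph node homing receptor, had 4, 0 and 5 calls against 2, 0 and 2 of 5 (0.54, SE 0.13, limma adjusted p = 0.729), the widest difference of any listed gene, and CXCL3 2, 1 and 1 against 5, 1 and 4 of 5 (-0.20). Replicate 2 called no CCR7 region in either line. A region 23332 bp outside CCL20 (chromosome 2, 227789584 to 227790510), a chemokine gene, was lost with whole and with equal lists and had 844, 784 and 634 bp in WT and 14 of 15 other calls. A region 40081 bp outside CYLD, a deubiquitinase of NF-kB signalling (chromosome 16, 50842016 to 50842943), was lost likewise, with 921, 501 and 762 bp in WT, and was called in all 15 other libraries.

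Of the interferon genes, 2 of 8 tested were higher and 6 lower (median -0.06). RSAD2, an antiviral enzyme, had 1, 1 and 3 calls against 6, 2 and 4 of 6 (-0.23). Immediate-early factors were 5 higher and 5 lower, with EGR2 at 7, 4 and 6 calls against 5, 4 and 6 of 8 (0.20, limma adjusted p = 0.729). Neural and synaptic genes were lower in 15 of 18 and higher in 3 (median -0.05), and DCX had 4, 3 and 4 calls against 9, 5 and 7 of 10 (-0.21). A region inside CADM2, a synaptic adhesion gene (chromosome 3, 85504175 to 85505564), was lost with whole and equal lists, with 1157, 780 and 1390 bp in WT and calls in all 15 other libraries. Perivascular and other macrophage genes were lower in 5 of 7, F13A1 with 3, 1 and 4 calls against 7, 3 and 8 of 10 (-0.17). Housekeeping genes gave 3 of 8 higher and 5 lower (median -0.02), close to all genes, of which 3072 were higher and 3808 lower.

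Regions called in all 6 libraries were compared by width. None of 29473 passed limma (0.0% in each direction), while 334 (1.13%) were wider and 614 (2.08%) narrower in SORL1-A528T by the unadjusted p, and the smallest adjusted p was 0.417. The region with the smallest p lay 106422 bp outside SLCO5A1, a transporter family gene, on chromosome 8 (69941400 to 69942897). It had 501, 501 and 501 bp in SORL1-A528T and 1333, 1164 and 1498 bp in WT, a log2 difference of -1.37 (SE 0.17). A region inside FTCDNL1 (chromosome 2, 199738691 to 199740412) had 643, 501 and 501 bp against 1722, 1420 and 1486 (-1.46, SE 0.19), and a region inside LAMA1, the gene of laminin alpha 1 (chromosome 18, 6953841 to 6955640), 627, 501 and 705 bp against 1670, 1411 and 1598 (-1.33, SE 0.18). In these 3 the SORL1-A528T peaks were 501 to 705 bp wide, at or near the commonest width of 501 bp, and each region was called in 14 or 15 of the 15 other libraries. Of the wider regions, that near TBL1X on X (9315725 to 9317015) had 1151, 1041 and 1291 bp against 755, 628 and 626 (0.83, SE 0.18). That near TIMM17B on X (48890392 to 48892377) had 1850, 1568 and 1813 bp against 1372, 765 and 1133 (0.75, SE 0.17), and that near DNAJB5 on chromosome 9 (34985295 to 34987210) 1292, 905 and 1869 bp against 627, 501 and 753 (1.11, SE 0.25). Widths did not overlap between the lines in 4.21% of regions in the wider and 3.88% in the narrower direction.

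The same regions were compared by their place in the lists, which carries strength: on average 14.96 to 14.99 of the 15 other libraries held a peak from the first 10% of a list, and 3.54 to 10.1 held one from the last 10%. Within each of the 6 lists the place of a peak went with its width (Spearman correlation 0.819 to 0.923), so place and width are not separate evidence. Ranks among the shared regions were turned into normal scores, on which 0 is the middle of the list and 1 unit is 1 SD. None of 29473 regions passed limma (0.0% in each direction), while 554 (1.88%) were higher and 701 (2.38%) lower by the unadjusted p. The gene start of TFE3, a transcription factor of lysosome biogenesis, on X (49041542 to 49044366) scored 2.34, 2.24 and 2.30 in SORL1-A528T and 1.12 to 1.26 in WT (difference 1.11, SE 0.17, limma adjusted p = 0.9995). Its width was 2794, 2686 and 2719 bp against 1188, 880 and 2505. A region inside STK40, a kinase gene (chromosome 1, 36348869 to 36351279), scored 0.46, -0.34 and 0.32 against -1.36, -1.48 and -1.38 (1.55, SE 0.25). The lower regions included a region 25569 bp outside HECTD2, a ubiquitin ligase gene (chromosome 10, 91540389 to 91542838), at -0.56, -1.12 and -1.06 against 0.45, 0.82 and 0.73 (-1.58, SE 0.23). A region inside ME1, the cytosolic malic enzyme (chromosome 6, 83428040 to 83428905), scored -2.34, -2.11 and -2.28 against a highest WT score of -0.88 (-1.23, SE 0.18). The lines did not overlap in any of these 4 regions, which was so in 3.85% of regions in the higher and 5.24% in the lower direction.

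Whole chromosomes gave no call. By depth-adjusted calls 0 of 23 chromosomes passed limma in either direction (0.0%), and chromosome 21 alone (4.35%) had an unadjusted p under 0.05 (0.05, -0.01 and 0.06 in SORL1-A528T and -0.02, -0.01 and -0.06 in WT). Without SORL1-A528T replicate 2, 4 chromosomes passed as higher, 16, 21 and 22 among them. Lower values without overlap were found in 1 chromosome (4.35%), chromosome 7, at a difference of -0.02. By list order 0 of 23 passed and none had an unadjusted p under 0.05. Replicate 2 of each line lay lowest on chromosome 22, at -0.50 in SORL1-A528T and -0.56 in WT, against 0.32 and 0.23 in the other SORL1-A528T libraries and 0.20 and -0.24 in the other WT libraries.

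Neighbouring regions of X around TBL1X stood higher in the SORL1-A528T lists than in the WT lists. This comparison was added after the values had been seen: list order was averaged over 1 Mb windows with at least 5 of the 25599 regions called in all 21 libraries, and the 5 windows with the widest difference in each direction, among those in which the lines did not overlap (1.93% of 2073 windows in the higher and 4.15% in the lower direction), are described. The window from 9000001 to 10000000 of X scored 0.30, 0.002 and 0.19 in SORL1-A528T and -0.52, -0.61 and -0.54 in WT (difference 0.72, SE 0.12, unadjusted p = 0.000438, limma adjusted p = 0.909). When limma was given a replicate block, the adjusted p was 0.00992, so the call depended on whether the numbers pair the libraries. Same-numbered libraries deviated together in all 3 pairs by width, and in list order in 2 pairs, with a correlation of 0.0892 in replicate 3. SORL1-A528T replicate 3 correlated more with WT replicate 1, at 0.294 by width and 0.218 in list order, so pairing by number is not settled. The SD of all window differences was 0.161. In 6 of its 9 regions the lines did not overlap, all higher in SORL1-A528T; over the 25599 regions the share was 3.63% in that direction and 5.09% in the other, and since the window was picked for its difference nothing is read from this. The window holds TBL1X, a subunit of the NCoR corepressor complex, GPR143, a melanosome receptor, SHROOM2, a cytoskeletal gene, FAM9B and CLDN34. The TBL1X gene start (9462542 to 9463874) scored 0.02, -0.76 and -0.18 against -0.70, -1.08 and -1.20, and a region inside TBL1X (9676648 to 9678097) 0.35, 0.78 and 0.16 against -0.64, -0.69 and -0.22. TREM2-KO, the line that the genotype label of the SORL1-A528T libraries names, averaged 0.35 in the window, above SORL1-A528T at 0.16, while WT averaged -0.56 and the other 4 lines -0.63 to -0.54. SORL1-A528T and TREM2-KO thus lay on one side and the other 5 lines on the other, in a window chosen for its difference between SORL1-A528T and WT. Whether this bears on the conflict of labels was not tested.

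**Figure D5:**
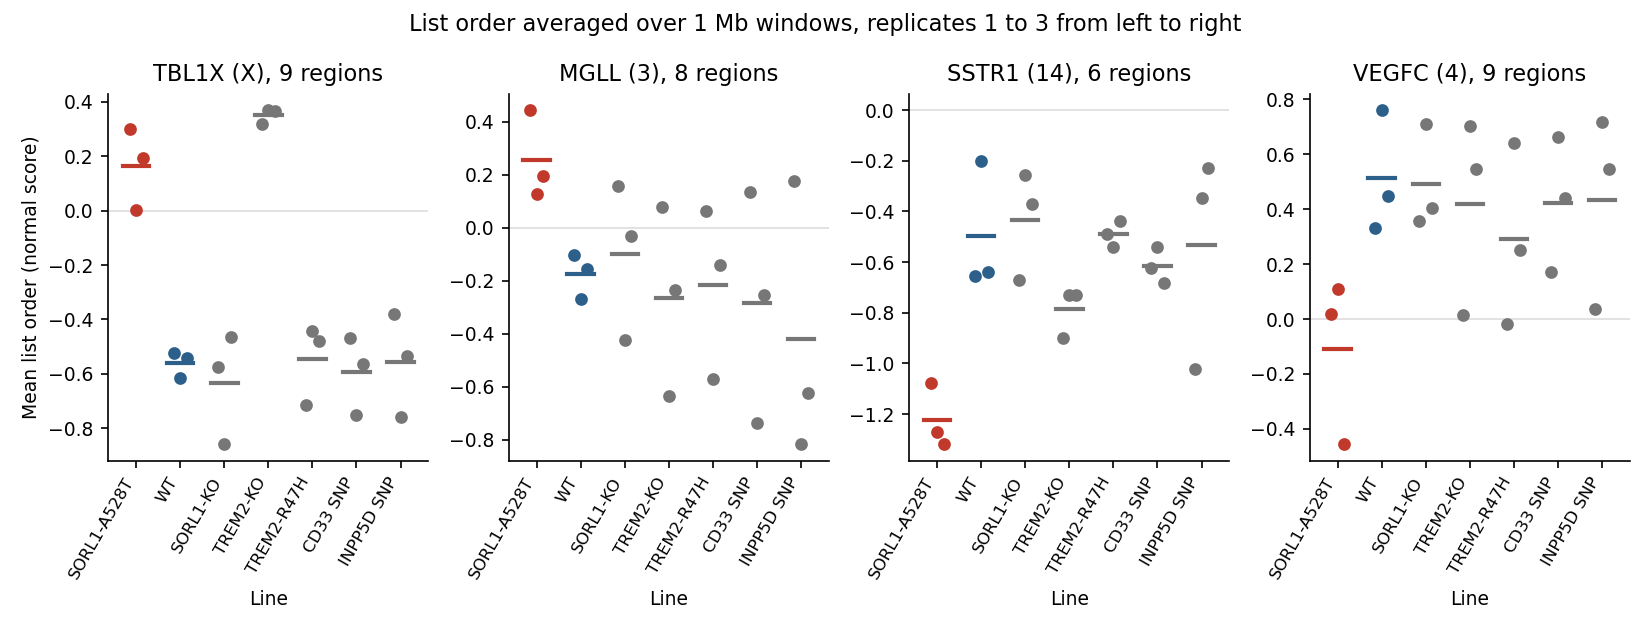
Mean list order, as a normal score, over the regions of 4 windows of 1 Mb in each of the 21 libraries (points, replicates 1 to 3 from left to right) with the mean of each line (bars), for windows holding TBL1X, MGLL, SSTR1 and VEGFC. In the TBL1X window SORL1-A528T and TREM2-KO averaged 0.16 and 0.35 and the other lines -0.63 to -0.54, and in the other 3 windows the mean of SORL1-A528T lay beyond that of each other line.

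In several other windows picked in this way the mean of SORL1-A528T lay outside the means of the other 6 lines. On chromosome 14 (38000001 to 39000000, holding SSTR1, a somatostatin receptor gene, and CLEC14A, an endothelial lectin gene) the window scored -1.08, -1.27 and -1.32 in SORL1-A528T and -0.66, -0.20 and -0.64 in WT (-0.72, SE 0.16, limma adjusted p = 0.993, or 0.0403 with the replicate block), with means of -0.79 to -0.43 in the other lines. The regions of the chromosome 14 window were nearest to SEC23A, at 143604 to 309383 bp, or to CLEC14A, at 384980 bp, and none to SSTR1. On chromosome 4 (176000001 to 177000000) the window scored 0.02, 0.11 and -0.45 against 0.33, 0.76 and 0.45 (-0.62, SE 0.19). The gene start of VEGFC, a growth factor of lymphatic vessels, lies there (176791495 to 176793345) and scored -1.70, -1.41 and -3.22 in SORL1-A528T and -0.85, -0.27 and -0.76 in WT, with means of -0.95 to -0.41 in the other lines. The 4 other regions nearest to VEGFC differed by -0.56, -0.74, -1.40 and -0.74, the lines overlapping in the first of them, while the starts of SPCS3, a signal peptidase subunit, and SPATA4 in the same window were close (differences of -0.11 and -0.06).

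On chromosome 8 (57000001 to 58000000) the gene start of FAM110B (57994069 to 57996024) scored -0.60, -1.93 and -2.57 in SORL1-A528T and 0.27, 0.05 and -0.29 in WT, with means of -0.07 to 0.54 in the other lines, and the window averaged -0.92 against -0.30. On chromosome 3 (127000001 to 128000000) the window was higher, at 0.44, 0.13 and 0.19 against -0.10, -0.27 and -0.15 (0.43, SE 0.13). It rested on 2 of 8 regions: a region inside MGLL, the lipase that degrades the endocannabinoid 2-arachidonoylglycerol (127734315 to 127736822), scored 0.32, -0.23 and 0.36 against -0.82, -2.16 and -1.17, and a region near PLXNA1, a semaphorin receptor (127074361 to 127075814), 1.33, 1.25 and 0.65 against 0.08, -0.51 and -0.60. At the PLXNA1 region SORL1-KO also stood high, with a mean of 0.90 beside 1.08 in SORL1-A528T, while the other edited lines averaged -0.43 to -0.09. At the MGLL region SORL1-KO averaged -0.81, among the other lines. The remaining windows were a higher window on chromosome 1 (PLXNA2, difference 0.37), on chromosome 17 (KCNJ2, 0.34) and on X (48000001 to 49000000, with TIMM17B, 0.29), and lower windows on chromosome 5 (ADCY2 and MTRR, -0.53) and on X (115000001 to 116000000, with PLS3, -0.49). In the PLS3 window the widest differences, of -0.90 and -0.74, were at regions nearest to AGTR2. None of the 2073 windows passed limma without the block (0.0% in each direction), while 10 were higher and 21 lower by the unadjusted p. In the window on X from 48000001, which ends before the TFE3 start, 6 neighbouring regions from TIMM17B to OTUD5 (48890392 to 48959399), through SLC35A2, a sugar transporter, and PIM2, a survival kinase, were apart between the lines, with differences of 0.65 to 1.25. The window holds 20 regions, and over all 25599 regions the share apart in this direction was 3.63%. Since the window was picked for its difference, nothing is read from this count. That window scored 0.33 in TREM2-R47H and 0.22 in INPP5D SNP, close to 0.28 in SORL1-A528T, and -0.13 in TREM2-KO and -0.01 in WT.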

How the data were processed

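Omni-ATAC libraries were sequenced in pairs on a NextSeq, per the labels' protocols. The submitters' processing notes name cutadapt 1.18, STAR 2.7, HOMER 4.10 and DESeq2; how each was used, any shift for the transposase cut and the build are not given in the sources used here. HOMER findPeaks called peaks library by library in histone style (peak size 500, minimum distance 1000, 4.00 times the tags of the surrounding 10000 bp, local Poisson p of 1.00e-04), per the file headers. The deposited score is 1 in every row, so start, end and list order were used. Peaks on chromosomes Y and M were left out.

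Peaks sharing 1 bp were merged over the 6 lists. Genes and starts came from RefSeq tables of GRCh38.p14 (19970 protein-coding genes): regions called in all 6 libraries covered 43.6% of 22131 listed starts, against 2.25% and 2.32% of starts shifted by 10 kb. Regions were given to the closest gene, up to 100 kb away (81.7% of regions). Calls were adjusted for depth by subtracting, within a library, the mean over the regions that equally many of the 6 libraries had called. Per gene (at least 5 regions), region width (log2, centred on the library median), list order and chromosome, limma 3.58.1 in R 4.3.3 was run with Benjamini-Hochberg adjustment over all features, on 3 against 3 libraries; library values had exact permutation tests. The scripts were tested on simulated data with planted changes and noise independent between libraries. Such a test does not show what size of change the comparisons could detect in these libraries. For width, the correlations of deviations in same-numbered libraries (0.294, 0.489 and 0.2) all passed 0.1, the level required. SORL1-A528T replicate 3 correlated more with WT replicate 1 (0.294) than with WT replicate 3, so pairing by number is not settled. For list order (0.41, 0.401 and 0.0892) and genes (0.11, -0.131 and -0.0346) not all 3 correlations passed that level.

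Named regions were up to 10 in each direction that were also all-or-none with equal lists, gene starts first, then by median percentile; named features were the 3 with the smallest p in each direction, and for lists the members at all-or-none regions and the extremes. DACT1 and the windows were picked after their values were seen. The comparison, the 22 gene lists (554 of 555 genes matched) and the rules were chosen with earlier results of these data known. Alternatives were lists of equal length, a cover over the region, 200 bp overlap, other filters and scalings, the replicate block and leaving out libraries.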

Additional observations from a re-analysis of the deposited data

How the results depend on the processing

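Peaks have no height here, a call depends on depth, and depth went with the replicate number, so a lost region may be one that fell below the threshold in a shorter list; all-or-none counts have no test. With lists of equal length the differences in median width (50 bp with whole lists, -6 bp), gene-start share (2.52 points, -0.311) and share outside genes (-1.09 points, 0.794) turned direction, as did the share inside genes (-1.44 points) without SORL1-A528T replicate 2 (leaving out libraries gave -2.83 to 0.234); the cause was not tested. Gained regions numbered 96 with equal lists and 3 in the upper part of each list (the first 50%), and 25 to 497 with libraries left out. Lost regions numbered 242, 433 and 948 to 9315. The rule is looser with fewer libraries, so counts with libraries left out can only stay or rise.

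Leaving out libraries gave 0 to 47 higher and 0 to 18 lower genes (limma, 2 against 2 libraries): without both libraries of replicate 1 there were 47 and 18, ARHGEF18, ALX4 and LOC107986768 among them, and without those of replicate 3 21 and 3. It gave 0 to 4 higher chromosomes by call. With the replicate block, the TBL1X window on X (adjusted p = 0.00992) and the window on chromosome 14 (adjusted p = 0.0403) passed limma, so 1 window was higher and 1 lower where there were 0, and no other call changed. No other alternative changed a limma call on genes, widths, list order, chromosomes or windows.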
